A study of Homo sapiens with 20 samples.

Results

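The lysosomal enzymes and membrane proteins described here are 44 genes, taken by symbol from the 21201 gene symbols of the series' expression table: 10 glycosidases, 5 sulfatases, 10 proteases, 5 hydrolases of lipids and phosphate esters, 2 activator proteins, 6 membrane proteins, 2 cholesterol transport proteins and 4 proton pump subunits. All 44 stood in the table, on 1 entry each. The sequenced RNA came from human tumor lines kept for 24 h in 1 µM G007-LK, an inhibitor of the poly-ADP-ribosylating enzymes tankyrase 1 and 2 (TNKSi), or in 0.01% DMSO alone. The lines whose growth is sensitive to TNKSi are COLO 320DM from colon, UO-31 from kidney, OVCAR-4 from ovary and ABC-1 from lung, while RKO, also from colon, served as the insensitive line. Each line gave 2 G007-LK and 2 DMSO libraries, named as biological replicates, so that 20 libraries were compared in all. Each line is 1 established culture and stands for its tissue only in that sense, and ABC-1 and RKO were grown in another medium than the other lines. Values are RPKM, reads scaled by the length of the gene and by all mapped reads of the library. The total number of reads is unknown. From the spacing of the lowest values the libraries of a line were estimated to hold between 0.855 and 1.11 times the reads of its DMSO replicate 1.

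The lines were checked against lists of tissue markers, each summed in the 2 DMSO libraries. The 5 colon markers summed to 740.3 and 772 RPKM in COLO 320DM, nearly all of it the colon factor CDX2, and to 9.63 and 10.2 RPKM in RKO, with VIL1, KRT20 and CDH17 near 0. Through the epithelial gene EPCAM, which COLO 320DM had at 1.17 RPKM, the same list reached 458 and 473 RPKM in OVCAR-4 and 557 and 609 RPKM in ABC-1. The 4 kidney markers summed to 98.9 and 101 RPKM in UO-31 and to 101 and 99.5 RPKM in OVCAR-4, in both lines mostly PAX8, which is also on the list of serous ovary. That list of 4 was higher in ABC-1 (134 and 135 RPKM), through MSLN, than in OVCAR-4 (92.9 and 95.03 RPKM), where WT1 was near 0 (0.0953 RPKM). The 3 lung markers summed to 5.96 and 4.90 RPKM in ABC-1, with NAPSA and SFTPB near 0 (0.185 and 0.0512 RPKM), and to 3511 and 3590 RPKM in OVCAR-4, through KRT7. The lists did not set UO-31, OVCAR-4, ABC-1 or RKO apart as their labelled tissues, which rest on the labels. The 6 leukocyte and macrophage markers summed to at most 6.29 RPKM in any library.

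Lysosomes are the acidic organelles in which cells break down proteins, glycans, lipids and nucleic acids. Hydrolases made at the endoplasmic reticulum are tagged with mannose 6-phosphate and sorted to the lysosome, membrane proteins such as LAMP1 line its inner face, and the V-ATPase pumps in the protons that keep the lumen acidic. Many of these genes share a control element, the CLEAR element, which holds the E-box CACGTG and is bound by TFEB, TFE3 and MITF, transcription factors that mTORC1 keeps in the cytoplasm when nutrients are plentiful. Inherited loss of single members causes lysosomal storage diseases, among them Pompe disease (GAA), Fabry disease (GLA) and Niemann-Pick disease (SMPD1, NPC1 and NPC2).

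Promoters from 250 bases before to 50 bases after the transcription start were available from RefSeq (GRCh38.p14) for 31 of the 44 genes. The motifs searched read the same on both strands, and each shorter one lies inside the longer. The 8-letter core TCACGTGA stood in 7 of the 31 genes (22.6%), and in 1.18% of all 27305 genes with promoters of the same length. CACGTG stood in 12 of the 31 (38.7%), and in 8.77% of all these genes. Counted by promoter and not by gene, the shares of all 35116 promoters were 0.980% and 7.26%. The windows below are shown because they carry the shared element in CTSA and GAA (8-letter core), in NEU1 and CTSD (CACGTG without the core), which are described first among the genes that responded to G007-LK, and in MCOLN1 and LAMP1, whose RNA was past the threshold in 1 sensitive line each. Each is 5′ to 3′ on the strand of the gene, and the capitals mark the motif.
CTSA, chr20:45891298-45891327, plus strand: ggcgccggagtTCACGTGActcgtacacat
GAA, chr17:80101493-80101522, plus strand: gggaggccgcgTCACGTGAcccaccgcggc
GAA, chr17:80101538-80101567, plus strand: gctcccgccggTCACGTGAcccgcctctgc
CTSD, chr11:1763958-1763985, minus strand: ccggccgcgccCACGTGaccggtccggg
NEU1, chr6:31862931-31862958, minus strand: tgctgcgtgatCACGTGggaggagatga
MCOLN1, chr19:7522571-7522600, plus strand: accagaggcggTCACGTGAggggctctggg
MCOLN1, chr19:7522598-7522627, plus strand: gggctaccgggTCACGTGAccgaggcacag
LAMP1, chr13:113297199-113297228, plus strand: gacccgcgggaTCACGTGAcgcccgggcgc
Counted from the transcription start, the first base of the match lies at -26 in CTSA, -77 and -32 in GAA, -47 in CTSD, -126 in NEU1, -42 and -15 in MCOLN1, and -29 in LAMP1, whose window holds a second core and 4 further CACGTG that are not shown. The 250 bases before the start of CTSA (chr20:45891085-45891334, GRCh38.p14, plus strand, 65.6% G and C) are given whole, since this gene rose in each sensitive line and holds the 8-letter core and a further CACGTG close together, both in capitals.
CTSA, 250 bases before the start: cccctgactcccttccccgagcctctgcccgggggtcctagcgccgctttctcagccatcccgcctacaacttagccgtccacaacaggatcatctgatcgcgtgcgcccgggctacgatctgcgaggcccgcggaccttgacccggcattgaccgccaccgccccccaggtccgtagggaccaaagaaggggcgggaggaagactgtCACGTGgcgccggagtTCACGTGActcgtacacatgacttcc
The windows of SMPD1, NPC2, TPP1 and GM2A held no CACGTG, and no window was available for PSAP or MANBA. A match is a string of letters and not a measured binding site. Since many of these genes are already known to share the element, as said above, its share among the members is no independent result.

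The 44 genes took a larger share of all RPKM after G007-LK than in DMSO in each of the 5 lines, and no G007-LK library overlapped a DMSO library of its line. In UO-31 they made up 1.06% and 1.07% of the summed RPKM after G007-LK, against 0.777% and 0.767% in DMSO. ABC-1 had 0.891% and 0.895% after G007-LK, against 0.701% and 0.718% in DMSO, and COLO 320DM 0.479% and 0.489% after G007-LK, against 0.376% and 0.381% in DMSO. The shift was smaller in OVCAR-4, with 0.611% and 0.611% after G007-LK, against 0.543% and 0.547% in DMSO. RKO moved least, with 0.415% and 0.416% after G007-LK, against 0.386% and 0.383% in DMSO. With 2 libraries a group, no exact test of such a share within a single line can pass the threshold. No test over the lines was run, so the values stand as a description. By their mean over the 20 libraries the most abundant members were PSAP, CD63, CTSD, LAMP1 and CTSZ, and these 5 held 49.3% of the members' RPKM. The order differed by line, since CTSZ averaged 0.501 RPKM in ABC-1 and NPC2, at 551 RPKM over the libraries of OVCAR-4, was second there to CD63. The summed RPKM of all members after G007-LK over that in DMSO came to 1.34 for UO-31, 1.21 for COLO 320DM, 1.15 for ABC-1, 1.08 for OVCAR-4 and 1.06 for RKO, and for the 39 genes without these 5 it came to 1.25, 1.24, 1.12, 1.04 and 1.06 in the same order of lines. Some marker lists moved with the treatment as well. The colon list summed to 535 and 527 RPKM after G007-LK, against 740.3 and 772 RPKM in DMSO, in COLO 320DM. The serous ovary list had 177 and 176 RPKM after G007-LK, against 134 and 135 RPKM in DMSO, in ABC-1, and the 3 fibroblast markers had 121 and 97.1 RPKM after G007-LK, against 88.5 and 85.4 RPKM in DMSO, in UO-31. Their part in the members' values was not tested. In RNA of a whole culture, more of a transcript per cell and more cells that carry it cannot be told apart.

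**Figure D1:**
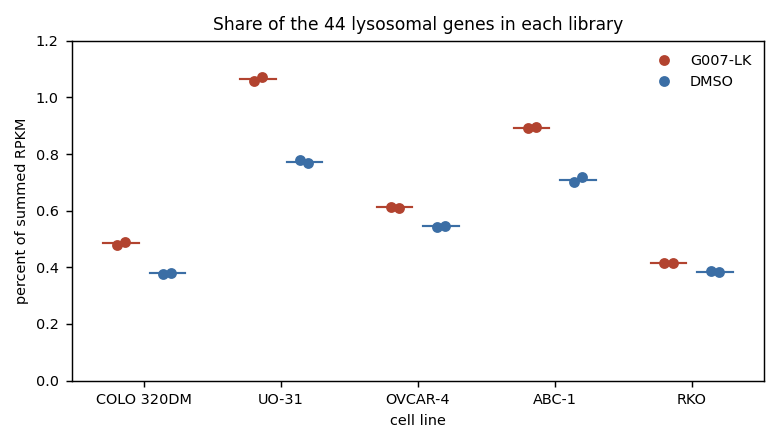
Share of the 44 lysosomal genes in the summed RPKM of each library, in percent, with a point per library, a line at the mean of 2, and G007-LK left of DMSO in each cell line. The G007-LK libraries lie above the DMSO libraries in every line, by most in UO-31 (1.06% and 1.07%, against 0.777% and 0.767%) and by least in RKO.

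A larger share of the members than of all genes tested rose after G007-LK in each line, and a smaller share fell. The test was limma's, of G007-LK minus DMSO on the scale of log2(RPKM + 0.5), for genes that averaged at least 1 RPKM over the libraries of the line, and a gene was called when its Benjamini-Hochberg adjusted p over all genes tested was under 0.05. Differences are in log2 units, and ± after a difference is its standard error. In COLO 320DM, 20 of 42 members tested rose and 1 fell, where 7.7% of all genes rose and 11.6% fell. In UO-31, 10 of 42 rose, where 4.79% of all genes rose, and 0 fell (0 by limma also at an unadjusted p under 0.05), where 8.63% of all genes fell. In OVCAR-4, 19 of 44 rose and 5 fell, where 12.6% of all genes rose and 39% fell. In ABC-1, 21 of 40 rose and 5 fell, where 16.6% and 41.2% of all genes did so. ARSA, among the 21, passed the filter on low RPKM only through the G007-LK libraries, where it was higher, and over genes at 1 RPKM or more in both groups 20 of 39 rose, where 16% of all such genes did so. The insensitive RKO line had 7 of 40 members higher, where 1.36% of all genes were higher, and 0 lower (0 by limma also at an unadjusted p under 0.05), where 2.75% of all genes were lower. The median log2 difference of the members was 0.30 in COLO 320DM, 0.25 in UO-31, 0.09 in OVCAR-4, 0.21 in ABC-1 and 0.07 in RKO, and that of all genes tested was -0.01, -0.04, -0.11, -0.14 and -0.02 in the same order. Counted without a test, both G007-LK libraries lay above both DMSO libraries for 30 members and below them for 6 in COLO 320DM, where 26.3% and 31.7% of all genes tested did so. UO-31 had 25 members above and 0 below (23.1% and 30.3% of all genes), OVCAR-4 had 25 and 11 (21.2% and 54.6%), ABC-1 had 27 and 8 (24.9% and 52.5%), and RKO had 22 and 2 (16.7% and 35.2%). The genes left out for low RPKM were CTSK and CTSS in COLO 320DM, UO-31, ABC-1 and RKO, CTSF in ABC-1 and RKO, CTSZ in ABC-1 and IDUA in RKO.

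The calls depended on the scaling of the libraries and on single libraries. When each library was rescaled to its median ratio, which brought the median log2 difference of all genes to -0.02 in ABC-1 (-0.14 as deposited) and to -0.01 in OVCAR-4 (-0.11 as deposited), COLO 320DM had 28 members that rose and 2 that fell, where 17.1% and 21.8% of all genes did so. UO-31 had 21 that rose and 0 that fell, where 12.6% and 18.1% of all genes did so, and OVCAR-4 had 31 that rose and 2 that fell, where 23% and 24.4% did so. ABC-1 had 28 that rose and 3 that fell, where 28.6% and 34.7% of all genes did so, and RKO had 7 that rose and 0 that fell, where 1.56% and 1.07% did so. In COLO 320DM the number of members that rose was 29 without DMSO replicate 2, where 18.4% of all genes rose, 3 without the first G007-LK replicate (1.59% of all genes) and 5 without the second (1.95%). In UO-31 it was 2 without either DMSO replicate, where 0.295% and 0.210% of all genes rose, 21 without the first G007-LK replicate (12.2%) and 31 without the second (37.0%). In ABC-1 it was 10 without the first G007-LK replicate (8.45% of all genes) and 12 without the second (10.5%), in OVCAR-4 12 without DMSO replicate 1 (8.63%), and in RKO 2 to 4, whichever library was left out (0.513% to 0.666%). The members that fell numbered 6 in UO-31 without G007-LK replicate 1, where 51.4% of all genes fell, and 0 in COLO 320DM without either G007-LK replicate, where 3.69% and 2.30% fell. In OVCAR-4 they numbered 3 without G007-LK replicate 1 (35.1% of all genes) and 2 without DMSO replicate 2 (25.8%), and in ABC-1 2 without the second G007-LK replicate (26.6%). Members called in the same comparison whichever library was left out numbered 13 for OVCAR-4, 12 for ABC-1, 3 for COLO 320DM, 2 for UO-31 and 1 for RKO.

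**Figure D2:**
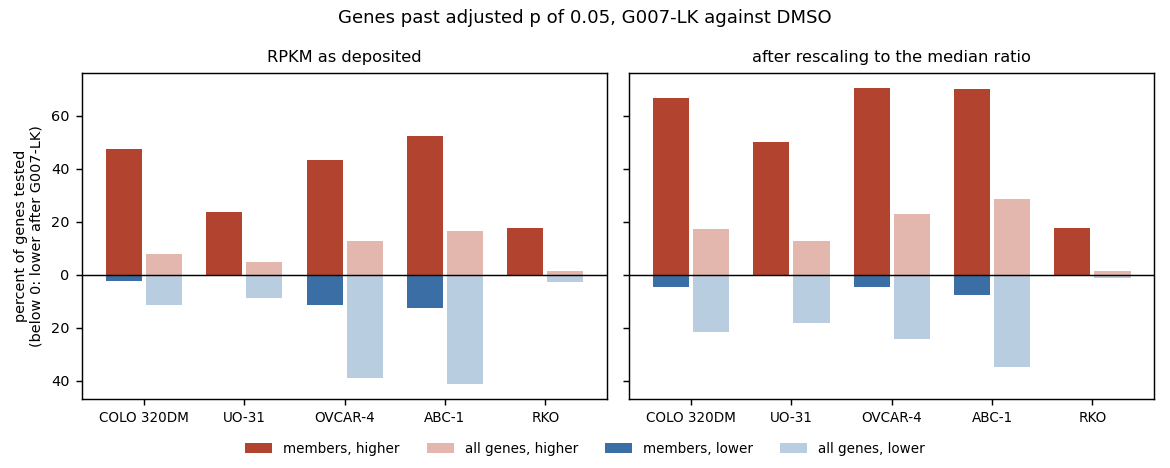
Percent of genes tested that were past an adjusted p of 0.05, with members (dark bars) beside all genes tested (pale bars), higher after G007-LK above 0 and lower below 0, for RPKM as deposited and after rescaling to the median ratio. In COLO 320DM, 20 of 42 members rose, beside 7.7% of all genes.

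**Figure D3:**
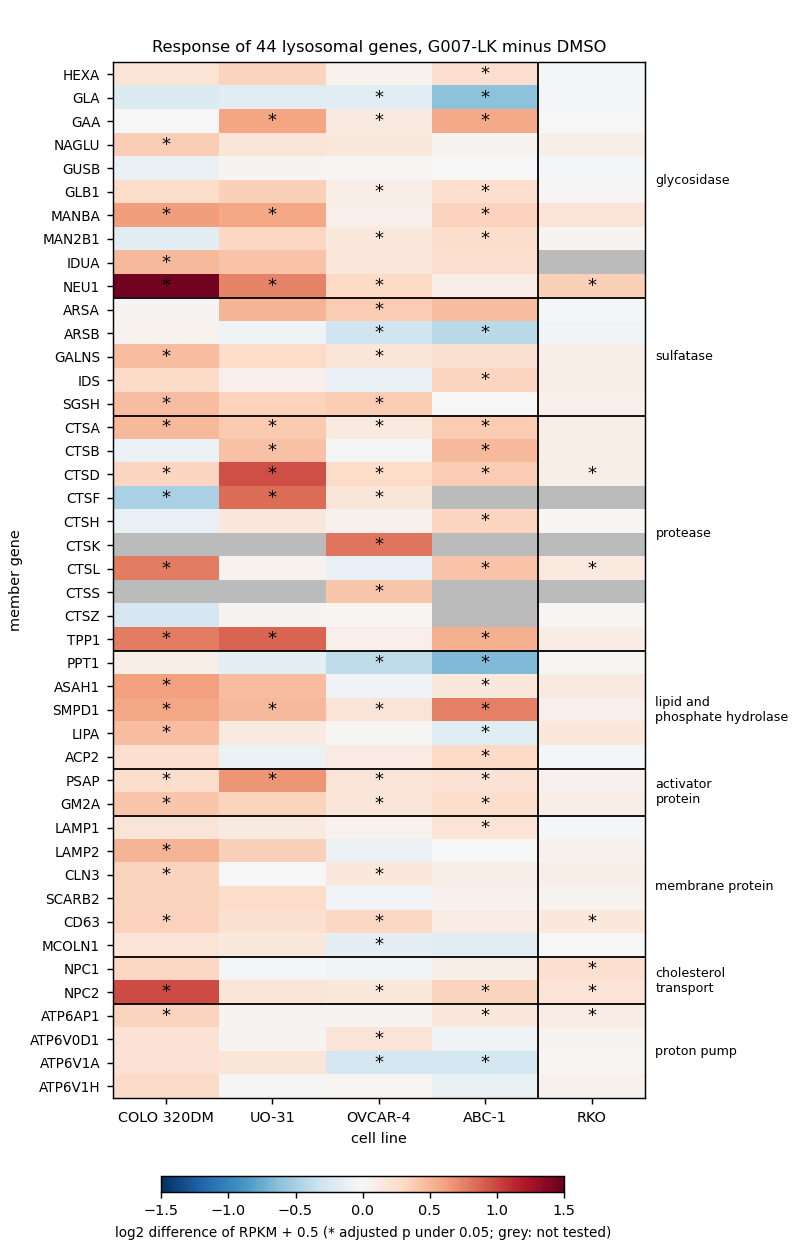
Log2 difference of RPKM + 0.5, G007-LK minus DMSO, for each of the 44 genes (rows, grouped by role) in each line (columns), with an asterisk where the adjusted p was under 0.05 and both groups averaged 1 RPKM or more, and grey where the gene was not tested. CTSA, CTSD, PSAP and SMPD1 carry an asterisk in the 4 sensitive lines, PPT1 and GLA are blue in OVCAR-4 and ABC-1, and RKO is pale.

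Of the 44 genes, 34 rose in at least 1 sensitive line and 7 fell in at least 1, where 25.2% and 48.6% of the 14080 genes tested in at least 1 of these lines did so. CTSD, CTSA, SMPD1 and PSAP, 4 genes, rose in all 4 sensitive lines, as did 0.398% of all genes. Another 6 rose in 3 of them, which makes 10 in at least 3, where 1.77% of all genes did so. A further 12 rose in 2 lines, ARSA with its ABC-1 value among them, and 12 in 1. After rescaling, 12 rose in all 4 lines, as did 1.43% of all genes. The 5 genes called in neither direction in any sensitive line as deposited, as 31.1% of all genes were, were GUSB (β-glucuronidase), CTSZ, NPC1, SCARB2 and ATP6V1H. With rescaling SCARB2 rose in 3 of these lines, NPC1 and ATP6V1H in 2 each and GUSB in 1, while CTSZ rose in 1 and fell in 1. Only 1 of the 44 members was then called in no sensitive line, beside 22.7% of all genes.

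CTSD encodes cathepsin D, the main aspartic protease of the lysosome, and had its largest response in UO-31, where its RPKM nearly doubled. It had 969 and 903 RPKM after G007-LK, against 491 and 466 RPKM in DMSO there, a ratio of means of 1.96 and a log2 difference of 0.97 ± 0.08, adjusted p = 7.7e-28. In COLO 320DM it had 149.6 and 151 RPKM after G007-LK, against 118 and 123 RPKM in DMSO (0.32 ± 0.08, adjusted p = 0.0063). OVCAR-4 had 305 and 326 RPKM after G007-LK, against 258 and 262 RPKM in DMSO (0.27 ± 0.04, adjusted p = 8.1e-05), and ABC-1 523 and 531 RPKM after G007-LK, against 392 and 418 RPKM in DMSO (0.38 ± 0.05, adjusted p = 1.9e-13). The G007-LK libraries lay above the DMSO libraries in each of these lines, and also in RKO, with 83.3 and 81.5 RPKM after G007-LK, against 76.1 and 77.05 RPKM in DMSO (0.10 ± 0.02, adjusted p = 0.045). The CTSD call held in ABC-1, OVCAR-4 and UO-31 whichever library was left out, whereas in COLO 320DM it was lost without either G007-LK replicate (log2 0.29 to 0.34 without 1 library) and in RKO whichever library was left out (0.09 to 0.12). A gene annotated on the same strand shares 22.9% of the exon bases of CTSD.

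CTSA encodes cathepsin A, a serine carboxypeptidase that also shields NEU1 and β-galactosidase from degradation, and its difference was smallest in OVCAR-4 among the sensitive lines. In COLO 320DM it had 51.97 and 51.2 RPKM after G007-LK, against 35.6 and 37.9 RPKM in DMSO (0.48 ± 0.09, adjusted p = 0.0016), and in UO-31 134 and 119 RPKM after G007-LK, against 98.9 and 94.4 RPKM in DMSO (0.39 ± 0.13, adjusted p = 0.020). ABC-1 had 208 and 205 RPKM after G007-LK, against 159 and 156 RPKM in DMSO (0.39 ± 0.06, adjusted p = 6.6e-10), and OVCAR-4 173 and 184 RPKM after G007-LK, against 156 and 166 RPKM in DMSO (0.15 ± 0.04, adjusted p = 0.012). RKO had 69.8 and 72.4 RPKM after G007-LK, against 67.6 and 66.6 RPKM in DMSO, and its difference of 0.08 ± 0.03 did not pass the threshold (adjusted p = 0.11). No G007-LK library of CTSA overlapped a DMSO library in any line. The call was lost in COLO 320DM without either G007-LK replicate (log2 0.44 to 0.53), in UO-31 without either DMSO replicate (0.30 to 0.47) and in OVCAR-4 without DMSO replicate 1 (0.11 to 0.20). Exons of CTSA overlap those of NEURL2 and PLTP on the other strand, by 11.1% and 3.81% of its exon bases, and whether the reads were counted by strand is not stated.

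SMPD1, acid sphingomyelinase, splits sphingomyelin into ceramide and phosphocholine. It had 26.9 and 25.6 RPKM after G007-LK, against 15.8 and 15.00 RPKM in DMSO in ABC-1, the largest rise among the members there (0.75 ± 0.09, adjusted p = 2.7e-15). In COLO 320DM it had 20.8 and 20.7 RPKM after G007-LK, against 13.4 and 13.99 RPKM in DMSO (0.58 ± 0.12, adjusted p = 0.0020). UO-31 had 64.6 and 56.8 RPKM after G007-LK, against 45.2 and 41.2 RPKM in DMSO (0.48 ± 0.15, adjusted p = 0.011), and OVCAR-4 18.2 and 18.2 RPKM after G007-LK, against 16.02 and 15.8 RPKM in DMSO (0.19 ± 0.06, adjusted p = 0.014). The groups did not overlap in any of these lines. In RKO they did, with 4.24 and 4.72 RPKM after G007-LK, against 4.33 and 4.09 RPKM in DMSO (0.08 ± 0.07, adjusted p = 0.54). The call was lost in COLO 320DM without either G007-LK replicate (0.55 to 0.61), in UO-31 without either DMSO replicate (0.39 to 0.57) and in OVCAR-4 without DMSO replicate 2 (0.18 to 0.20).

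PSAP, prosaposin, is the precursor of the 4 saposins that present sphingolipids to their hydrolases, and it was the most abundant member over the 20 libraries. It had 983 and 852 RPKM after G007-LK, against 602 and 558 RPKM in DMSO in UO-31 (0.66 ± 0.08, adjusted p = 3.2e-13). ABC-1 had 774 and 765 RPKM after G007-LK, against 627 and 699 RPKM in DMSO (0.22 ± 0.05, adjusted p = 7.7e-06), and OVCAR-4 508 and 514 RPKM after G007-LK, against 442 and 453 RPKM in DMSO (0.19 ± 0.03, adjusted p = 2.6e-04). In COLO 320DM it had 197 and 192 RPKM after G007-LK, against 155 and 169 RPKM in DMSO (0.26 ± 0.08, adjusted p = 0.019), a call that was lost without either G007-LK replicate or DMSO replicate 1 (0.20 to 0.33). In RKO it had 157 and 159 RPKM after G007-LK, against 152 and 149 RPKM in DMSO, and the difference of 0.07 ± 0.02 did not pass (adjusted p = 0.12). The groups were apart in all 5 lines, and the difference was largest in UO-31. GM2A, the activator of the hydrolysis of ganglioside GM2, rose in COLO 320DM (0.42 ± 0.14, adjusted p = 0.047), OVCAR-4 (0.18 ± 0.05, adjusted p = 0.0056) and ABC-1 (0.26 ± 0.11, adjusted p = 0.034), and its difference in UO-31 was 0.33 ± 0.19, adjusted p = 0.28. In COLO 320DM GM2A had 11.3 and 10.4 RPKM after G007-LK, against 7.13 and 8.98 RPKM in DMSO. It had 20.3 and 16.1 RPKM after G007-LK, against 14.5 and 14.1 RPKM in DMSO in UO-31, 47.2 and 45.9 RPKM after G007-LK, against 41.00 and 41.2 RPKM in DMSO in OVCAR-4, and 9.16 and 8.95 RPKM after G007-LK, against 6.95 and 8.01 RPKM in DMSO in ABC-1. RKO had 8.93 and 8.72 RPKM after G007-LK, against 8.24 and 8.18 RPKM in DMSO. The calls of GM2A were lost in COLO 320DM and in ABC-1 without either G007-LK replicate or DMSO replicate 1 (0.26 to 0.57 and 0.17 to 0.36).

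**Figure D4:**
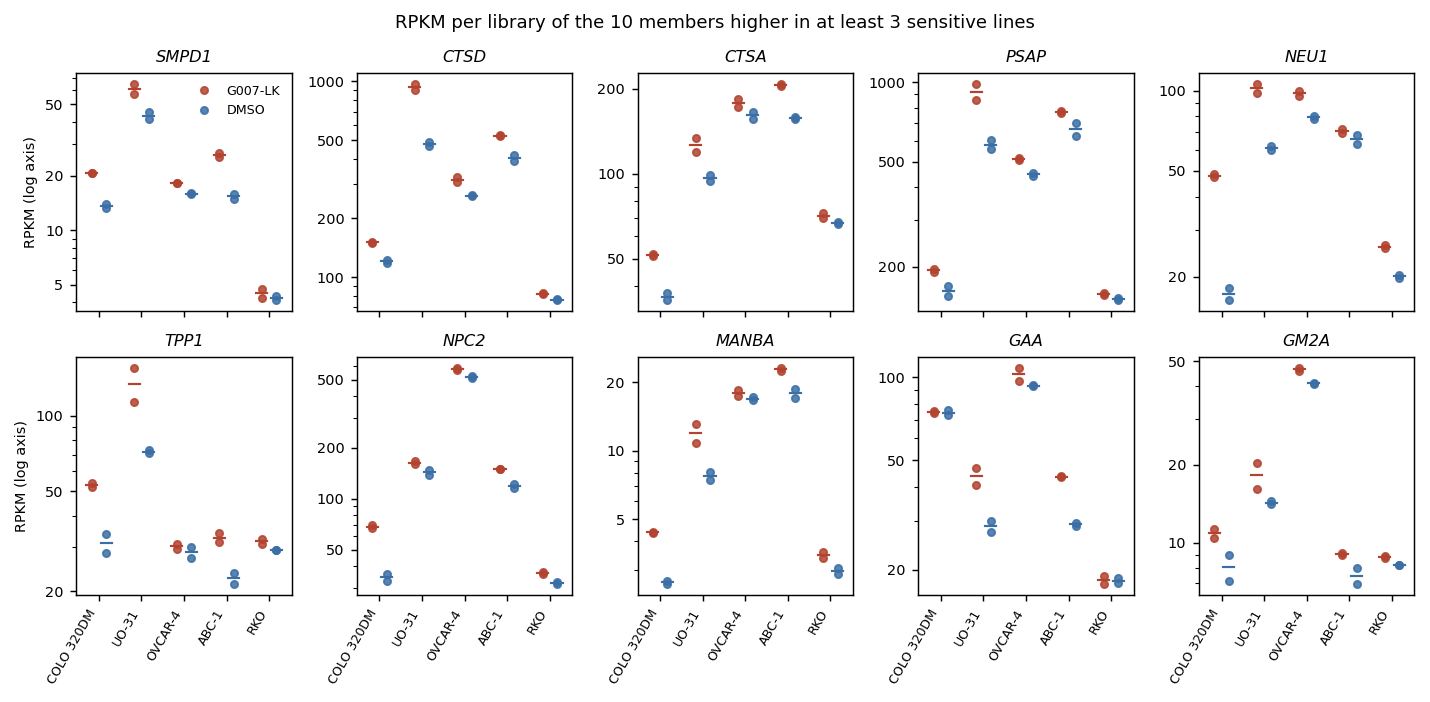
RPKM of the 10 members that rose in at least 3 sensitive lines, on log axes, with a point per library, a line at the mean of 2, and G007-LK left of DMSO in each cell line. CTSD in UO-31 (969 and 903 RPKM, against 491 and 466) and NEU1 in COLO 320DM (47.2 and 48.5 RPKM, against 16.3 and 18.1) are among the widest gaps.

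NEU1, the lysosomal sialidase that removes terminal sialic acid from glycoproteins and glycolipids, had the largest response of any member. In COLO 320DM it had 47.2 and 48.5 RPKM after G007-LK, against 16.3 and 18.1 RPKM in DMSO, a ratio of 2.78 (1.45 ± 0.11, adjusted p = 2.6e-08). It had 106 and 98.3 RPKM after G007-LK, against 62.1 and 59.7 RPKM in DMSO in UO-31 (0.74 ± 0.13, adjusted p = 2.3e-06), and 95.8 and 99.6 RPKM after G007-LK, against 80.6 and 78.2 RPKM in DMSO in OVCAR-4 (0.30 ± 0.04, adjusted p = 9.1e-05). ABC-1 stood apart from these lines, with 69.3 and 71.5 RPKM after G007-LK, against 63.01 and 68.3 RPKM in DMSO and a difference that did not pass (0.10 ± 0.07, adjusted p = 0.23), although it passed after rescaling (0.22, adjusted p = 0.0045). NEU1 also rose in RKO, with 26.2 and 25.6 RPKM after G007-LK, against 20.3 and 19.8 RPKM in DMSO (0.36 ± 0.03, adjusted p = 3.9e-04), where it had the largest difference of the members. It was the single member whose RKO call held whichever library was left out. The NEU1 call in UO-31 was lost without either DMSO replicate (0.69 to 0.79).

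NPC2 binds cholesterol in the lysosomal lumen and hands it to NPC1, which carries it through the membrane. NPC2 had 69.5 and 67.2 RPKM after G007-LK, against 32.9 and 36.2 RPKM in DMSO in COLO 320DM, a ratio of 1.98 (0.97 ± 0.09, adjusted p = 9.6e-07). It had 589.7 and 571 RPKM after G007-LK, against 514 and 528 RPKM in DMSO in OVCAR-4 (0.15 ± 0.03, adjusted p = 0.0014), 149 and 149 RPKM after G007-LK, against 116 and 122 RPKM in DMSO in ABC-1 (0.33 ± 0.06, adjusted p = 8.3e-07), and 36.1 and 37.1 RPKM after G007-LK, against 32.3 and 31.5 RPKM in DMSO in RKO (0.19 ± 0.03, adjusted p = 0.010). In UO-31, with 166 and 159 RPKM after G007-LK, against 148 and 137 RPKM in DMSO, the groups were apart but the difference did not pass (0.19 ± 0.12, adjusted p = 0.35). NPC1 behaved otherwise. It was called in RKO alone, with 10.1 and 10.3 RPKM after G007-LK, against 8.35 and 8.68 RPKM in DMSO (0.25 ± 0.04, adjusted p = 0.018), a call lost whichever library was left out (0.22 to 0.27). The RKO call of NPC2 was lost without G007-LK replicate 2 or DMSO replicate 2 (0.17 to 0.21). The differences of NPC1 in the sensitive lines ran from -0.04 in OVCAR-4 to 0.32 in COLO 320DM. In UO-31 the G007-LK libraries of NPC1, at 26.0 and 18.3 RPKM, lay on both sides of the DMSO libraries, at 22.5 and 22.2 RPKM. Rescaling brought NPC1 past the threshold in COLO 320DM (0.32) and ABC-1 (0.21).

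TPP1, tripeptidyl peptidase 1, which trims tripeptides from the ends of proteins and is lost in a late infantile neuronal ceroid lipofuscinosis, rose in COLO 320DM, UO-31 and ABC-1. It had 155 and 113 RPKM after G007-LK, against 70.97 and 72.7 RPKM in DMSO in UO-31 (0.88 ± 0.13, adjusted p = 1.7e-09), 53.99 and 52.02 RPKM after G007-LK, against 28.4 and 33.9 RPKM in DMSO in COLO 320DM (0.76 ± 0.10, adjusted p = 5.4e-05), and 34.04 and 31.3 RPKM after G007-LK, against 21.4 and 23.7 RPKM in DMSO in ABC-1 (0.53 ± 0.09, adjusted p = 5.2e-09). The UO-31 G007-LK replicates were far apart but both above DMSO, and that call was lost without either DMSO replicate (0.65 to 1.11). Over all genes the second of them was also the lower by the median (above). In OVCAR-4 the groups overlapped, with 30.9 and 29.5 RPKM after G007-LK, against 27.1 and 29.98 RPKM in DMSO (0.08 ± 0.06, adjusted p = 0.27). RKO had 32.4 and 30.9 RPKM after G007-LK, against 29.2 and 29.1 RPKM in DMSO (0.12 ± 0.03, adjusted p = 0.079).

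GAA, the α-glucosidase that degrades glycogen, rose in UO-31, with 46.7 and 40.6 RPKM after G007-LK, against 30.05 and 27.4 RPKM in DMSO (0.59 ± 0.16, adjusted p = 0.0029), and in ABC-1, with 43.7 and 43.3 RPKM after G007-LK, against 28.9 and 29.6 RPKM in DMSO (0.57 ± 0.08, adjusted p = 3.1e-11). OVCAR-4 had 96.9 and 108 RPKM after G007-LK, against 92.9 and 93.5 RPKM in DMSO (0.14 ± 0.05, adjusted p = 0.042), a call lost without G007-LK replicate 2 or either DMSO replicate (0.06 to 0.22). GAA showed no such gap in COLO 320DM, with 75.1 and 74.1 RPKM after G007-LK, against 72.7 and 76.1 RPKM in DMSO (0.00 ± 0.08, adjusted p = 0.98), nor in RKO, with 17.7 and 18.9 RPKM after G007-LK, against 18.6 and 17.9 RPKM in DMSO (0.01 ± 0.04, adjusted p = 0.96), where the groups overlapped. MANBA, β-mannosidase, rose in COLO 320DM (4.36 and 4.41 RPKM after G007-LK, against 2.61 and 2.70 RPKM in DMSO, 0.63 ± 0.14, adjusted p = 0.0048), UO-31 (13.1 and 10.8 RPKM after G007-LK, against 8.06 and 7.47 RPKM in DMSO, 0.58 ± 0.21, adjusted p = 0.040) and ABC-1 (23.1 and 22.4 RPKM after G007-LK, against 17.1 and 18.6 RPKM in DMSO, 0.34 ± 0.09, adjusted p = 5.7e-04). Its values were 17.4 and 18.4 RPKM after G007-LK, against 16.7 and 17.2 RPKM in DMSO in OVCAR-4 (0.08 ± 0.06, adjusted p = 0.28) and 3.61 and 3.37 RPKM after G007-LK, against 3.07 and 2.87 RPKM in DMSO in RKO (0.20 ± 0.07, adjusted p = 0.12), with the groups apart but the threshold not passed. In UO-31 the calls of GAA and MANBA were lost without either DMSO replicate (0.49 to 0.69 and 0.45 to 0.72), and that of MANBA in COLO 320DM without either G007-LK replicate (0.61 to 0.65) and in ABC-1 without G007-LK replicate 1 (0.28 to 0.40).

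Of the 10 glycosidases, ABC-1 had 5 that rose, COLO 320DM and OVCAR-4 had 4 each, UO-31 had 3, and RKO had 1 of the 9 tested. Of all genes, 16.6% rose in ABC-1, 7.7% in COLO 320DM, 12.6% in OVCAR-4, 4.79% in UO-31 and 1.36% in RKO. HEXA, which acts on ganglioside GM2, rose in ABC-1 (0.25). GLB1, β-galactosidase, rose in OVCAR-4 (0.10) and ABC-1 (0.25), and MAN2B1, α-mannosidase, in the same pair of lines (0.15 and 0.27). NAGLU and IDUA, which act on heparan sulfate and related glycans, rose in COLO 320DM (0.37 and 0.49), and IDUA shares 13.2% of its exon bases with SLC26A1 on the other strand. These calls were lost in COLO 320DM and ABC-1 without either G007-LK replicate and in OVCAR-4 without DMSO replicate 1, that of GLB1 in OVCAR-4 also without G007-LK replicate 1 or DMSO replicate 2 and in ABC-1 without DMSO replicate 1. Genes annotated on the same strand share 13.1% and 8.10% of the exon bases of MAN2B1.

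Sulfatases remove sulfate from glycosaminoglycans and sulfolipids. Of 5, OVCAR-4 had 3 that rose, COLO 320DM had 2, and ABC-1 had 1 beside ARSA, where 12.6%, 7.7% and 16.6% of all genes rose. SGSH, which acts on heparan sulfate, had 27.1 and 27.2 RPKM after G007-LK, against 20.7 and 20.96 RPKM in DMSO in OVCAR-4 (0.38 ± 0.05, adjusted p = 8.6e-05) and rose in COLO 320DM, with 13.99 and 13.4 RPKM after G007-LK, against 9.29 and 10.3 RPKM in DMSO (0.46 ± 0.13, adjusted p = 0.017). It was level in ABC-1 to within its error (11.03 and 10.9 RPKM after G007-LK, against 10.7 and 11.2 RPKM in DMSO, 0.00 ± 0.11), and its values in UO-31 were 16.5 and 14.98 RPKM after G007-LK, against 11.7 and 12.8 RPKM in DMSO (0.35 ± 0.19, adjusted p = 0.27). ARSA, which acts on sulfatide, had 18.3 and 20.8 RPKM after G007-LK, against 14.8 and 15.02 RPKM in DMSO in OVCAR-4 (0.38 ± 0.07, adjusted p = 4.9e-04), and 1.36 and 1.19 RPKM after G007-LK, against 0.823 and 0.762 RPKM in DMSO in ABC-1, a low level at which only the G007-LK libraries averaged over 1 RPKM. GALNS rose in COLO 320DM (0.46) and OVCAR-4 (0.18), and IDS in ABC-1 (0.32). IDS shares 75.0% of its exon bases with another annotated gene on the same strand, so reads in those bases cannot be told apart. The calls of SGSH and GALNS in COLO 320DM were lost without either G007-LK replicate, that of GALNS in OVCAR-4 without DMSO replicate 1 and that of IDS in ABC-1 without G007-LK replicate 1. In UO-31 the G007-LK libraries of IDS disagreed, at 39.6 and 26.4 RPKM, against 30.9 and 30.2 RPKM in DMSO.

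Among the 10 proteases, ABC-1 had 6 of 6 tested that rose, UO-31 had 5 of 8, OVCAR-4 had 5 of 10, COLO 320DM had 4 of 8 and RKO had 2 of 7. Of all genes, 16.6%, 4.79%, 12.6%, 7.7% and 1.36% rose in the same order of lines. In ABC-1 these were CTSA, CTSB, CTSD, CTSH, CTSL and TPP1, with a median log2 difference of 0.40. CTSB, a cysteine protease with endo- and exopeptidase activity, rose in UO-31 (0.44, lost without either DMSO replicate) and ABC-1 (0.49), and CTSH in ABC-1 (0.32). CTSL, a cysteine endopeptidase, had 4.37 and 3.67 RPKM after G007-LK, against 1.79 and 2.53 RPKM in DMSO in COLO 320DM (0.77 ± 0.16, adjusted p = 0.0027, lost without G007-LK replicate 1, 0.57 to 0.97) and 73.2 and 69.1 RPKM after G007-LK, against 51.9 and 54.01 RPKM in DMSO in ABC-1 (0.42 ± 0.07, adjusted p = 4.4e-08). RKO held far more CTSL, with 152 and 152 RPKM after G007-LK, against 140.1 and 136 RPKM in DMSO (0.14 ± 0.02, adjusted p = 0.0099, lost without either G007-LK replicate or DMSO replicate 2). CTSK, known for collagen breakdown by osteoclasts, and CTSS, known from antigen-presenting cells, were tested in OVCAR-4 alone. CTSK had 2.62 and 2.96 RPKM after G007-LK, against 1.31 and 1.47 RPKM in DMSO there (0.80 ± 0.13, adjusted p = 2.6e-04), and CTSS 4.88 and 5.18 RPKM after G007-LK, against 3.43 and 3.85 RPKM in DMSO (0.42 ± 0.10, adjusted p = 0.0032). Both were low, and the 6 leukocyte and macrophage markers measured summed to 6.29 and 5.16 RPKM after G007-LK, against 5.15 and 5.35 RPKM in DMSO, with TYROBP at 0 in all libraries.

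Genes of lipid and phosphate ester hydrolysis split. Of 5, COLO 320DM and ABC-1 had 3 each that rose, and UO-31 and OVCAR-4 had 1 each. Of all genes, 7.7%, 16.6%, 4.79% and 12.6% rose in the same order of lines. ASAH1, acid ceramidase, which takes up the ceramide that SMPD1 yields, rose in COLO 320DM (0.61) and ABC-1 (0.16). ACP2, an acid phosphatase, rose in ABC-1 (0.30). Of the 6 membrane proteins, LAMP2 rose in COLO 320DM (0.50), LAMP1 in ABC-1 (0.21), CLN3 in COLO 320DM (0.33) and OVCAR-4 (0.16), and the tetraspanin CD63 in COLO 320DM (0.35), OVCAR-4 (0.31) and RKO (0.15). CD63 had 794 and 804 RPKM after G007-LK, against 634 and 654 RPKM in DMSO in OVCAR-4 and 366 and 375 RPKM after G007-LK, against 338 and 329 RPKM in DMSO in RKO. The 4 proton pump genes gave the smallest median over the sensitive lines, 0.08. ATP6AP1, an accessory subunit, rose in COLO 320DM (0.33), ABC-1 (0.16) and RKO (0.12), and ATP6V0D1, of the membrane sector, in OVCAR-4 (0.19). The calls of ATP6V0D1 and CD63 in OVCAR-4 held whichever library was left out. In COLO 320DM and ABC-1 the others were lost without either G007-LK replicate, that of ASAH1 in ABC-1 also without DMSO replicate 1, and that of CD63 in COLO 320DM without G007-LK replicate 1 alone. The call of CLN3 in OVCAR-4 was lost without G007-LK replicate 2 or either DMSO replicate, and in RKO that of CD63 was lost without DMSO replicate 2 and that of ATP6AP1 whichever library was left out. CLN3 shares 25.3% of its exon bases with a gene annotated on the same strand.

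Against this direction, PPT1, GLA, ARSB and ATP6V1A fell in both OVCAR-4 and ABC-1, and MCOLN1 fell in OVCAR-4. PPT1, palmitoyl-protein thioesterase 1, had 78.9 and 75.9 RPKM after G007-LK, against 112 and 134 RPKM in DMSO in ABC-1 (-0.66 ± 0.07, adjusted p = 4.9e-22) and 80.9 and 77.8 RPKM after G007-LK, against 103 and 104 RPKM in DMSO in OVCAR-4 (-0.38 ± 0.04, adjusted p = 1.1e-05). The groups were apart in both, and both calls held whichever library was left out and after rescaling (-0.54 and -0.28). The PPT1 groups overlapped in COLO 320DM, with 87.1 and 81.1 RPKM after G007-LK, against 73.6 and 85.02 RPKM in DMSO (0.09 ± 0.09, adjusted p = 0.55), and in RKO, with 56.8 and 57.2 RPKM after G007-LK, against 54.5 and 58.5 RPKM in DMSO (0.01 ± 0.03, adjusted p = 0.86), and in UO-31, with 55.04 and 47.02 RPKM after G007-LK, against 54.3 and 57.4 RPKM in DMSO (-0.13 ± 0.15, adjusted p = 0.65).

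GLA, α-galactosidase A, had 8.84 and 8.92 RPKM after G007-LK, against 13.7 and 14.03 RPKM in DMSO in ABC-1 (-0.62 ± 0.11, adjusted p = 2.2e-08, -0.50 after rescaling). In OVCAR-4 it had 72.01 and 69.5 RPKM after G007-LK, against 77.7 and 79.8 RPKM in DMSO (-0.15 ± 0.04, adjusted p = 0.0088), which was not past the threshold after rescaling (-0.05, adjusted p = 0.31) or without DMSO replicate 2. GLA shares 8.99% of its exon bases with RPL36A, a ribosomal protein gene on the other strand. Its values were 17.2 and 16.7 RPKM after G007-LK, against 19.5 and 19.6 RPKM in DMSO in COLO 320DM (-0.20 ± 0.11, adjusted p = 0.25), 17.9 and 14.8 RPKM after G007-LK, against 19.98 and 16.9 RPKM in DMSO in UO-31 and 18.6 and 18.1 RPKM after G007-LK, against 19.6 and 17.7 RPKM in DMSO in RKO. ARSB had 4.63 and 4.94 RPKM after G007-LK, against 5.61 and 6.40 RPKM in DMSO in OVCAR-4 (-0.30 ± 0.09, adjusted p = 0.016, -0.20 and adjusted p = 0.074 after rescaling) and 3.34 and 2.97 RPKM after G007-LK, against 4.04 and 4.62 RPKM in DMSO in ABC-1 (-0.40 ± 0.13, adjusted p = 0.0032). The call of ARSB was lost in OVCAR-4 without G007-LK replicate 1 or DMSO replicate 2 (-0.39 to -0.21) and in ABC-1 without G007-LK replicate 2 (-0.49 to -0.32). ATP6V1A, the catalytic subunit of the pump, fell by 0.27 on the log2 scale in OVCAR-4 and by 0.26 in ABC-1, and after rescaling its differences were -0.17 (adjusted p = 0.0081) and -0.14 (adjusted p = 0.053). MCOLN1, a calcium channel of the lysosomal membrane, whose promoter holds the CLEAR core at 2 places (above), fell by 0.14 in OVCAR-4, and was not past the threshold after rescaling (-0.03, adjusted p = 0.54) or without G007-LK replicate 1 or either DMSO replicate. The ABC-1 call of ATP6V1A was lost without G007-LK replicate 2.

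CTSF and LIPA were past the threshold in opposite directions in different lines. CTSF, cathepsin F, had 11.8 and 11.9 RPKM after G007-LK, against 17.2 and 16.5 RPKM in DMSO in COLO 320DM (-0.49 ± 0.12, adjusted p = 0.0086). It had 21.7 and 20.3 RPKM after G007-LK, against 12.04 and 11.01 RPKM in DMSO in UO-31 (0.84 ± 0.19, adjusted p = 2.7e-04), and 30.8 and 30.3 RPKM after G007-LK, against 26.2 and 27.7 RPKM in DMSO in OVCAR-4 (0.18 ± 0.05, adjusted p = 0.012). The groups were apart in all 3 lines, lower after G007-LK in COLO 320DM and higher in the other two, and the directions held after rescaling (-0.49, 0.85 and 0.28). The call was lost in COLO 320DM without either G007-LK replicate (-0.52 to -0.46), in UO-31 without either DMSO replicate (0.78 to 0.90) and in OVCAR-4 without DMSO replicate 1 (0.14 to 0.22). LIPA, lysosomal acid lipase, which frees cholesterol and fatty acids from their esters, had 23.99 and 22.1 RPKM after G007-LK, against 15.05 and 18.2 RPKM in DMSO in COLO 320DM (0.46 ± 0.12, adjusted p = 0.013) and 55.8 and 52.4 RPKM after G007-LK, against 57.2 and 65.8 RPKM in DMSO in ABC-1 (-0.18 ± 0.07, adjusted p = 0.027). After rescaling the ABC-1 difference of LIPA was -0.06 (adjusted p = 0.40), and it was also lost without either G007-LK replicate or DMSO replicate 2 (-0.28 to -0.08). The call of LIPA in COLO 320DM was lost without either G007-LK replicate (0.33 to 0.60).

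Over the 16 libraries of the sensitive lines, with the line as a block, 24 of the 40 members tested rose and 2 fell, where 10.2% of all genes rose and 33.8% fell. ARSA, among the 24, was in this fit through its G007-LK libraries in ABC-1. The lower genes were GLA (-0.28 ± 0.07, adjusted p = 0.0029) and PPT1 (-0.27 ± 0.08, adjusted p = 0.014). The largest rises were those of NEU1 (0.65 ± 0.13, adjusted p = 8.8e-04), TPP1 (0.56 ± 0.10, adjusted p = 2.1e-04), SMPD1 (0.50 ± 0.07, adjusted p = 3.2e-05) and CTSD (0.49 ± 0.08, adjusted p = 9.7e-05). After rescaling 34 rose and 2 fell, where 22.2% and 27.8% of all genes did so. The response differed among the sensitive lines for 21 of the 40 members, where this was so for 27.8% of all genes, and for 26 members after rescaling, where it was so for 56.5%. As deposited the number was 12 or 13 without COLO 320DM G007-LK replicate 1 or DMSO replicate 1, OVCAR-4 G007-LK replicate 2 or either of its DMSO replicates, or either G007-LK replicate of ABC-1, where 18.1% to 23.5% of all genes differed. NEU1 (adjusted p = 2.2e-06), NPC2 (2.3e-05) and CTSD (2.8e-05) led these by limma's moderated F test. The test found no such difference for CTSA (adjusted p = 0.054) and GM2A (0.66), which does not show that their responses were equal.

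Whether a sensitive line responded otherwise than RKO was tested by the interaction term in a fit of 8 libraries, and the 4 comparisons share the RKO libraries. In COLO 320DM, 7 of 42 members responded more than in RKO and 2 less, where 4.57% and 7.05% of all genes did so. The 7 were NEU1 (1.09 ± 0.10, adjusted p = 1.6e-04), NPC2 (0.78 ± 0.09, adjusted p = 6.7e-04), TPP1 (0.65 ± 0.11, adjusted p = 0.0064), CTSL, SMPD1, ASAH1 and CTSA, and the 2 were CTSZ (-0.27 ± 0.07, adjusted p = 0.036) and CTSF. RKO held almost no CTSF RNA that could respond, so its entry in these counts is no comparison of responses. In UO-31, 5 of 42 responded more, where 2.14% of all genes did so, namely CTSD (0.86 ± 0.08, adjusted p = 0.0011), TPP1 (0.76 ± 0.17, adjusted p = 0.034), GAA (0.59 ± 0.14, adjusted p = 0.039), PSAP (0.59 ± 0.10, adjusted p = 0.0090) and again CTSF. Among genes at 1 RPKM or more in both lines, COLO 320DM had 7 of 40 members above RKO and 1 below, where 4.26% and 6.93% of such genes were, and UO-31 had 4 of 40 above, where 1.15% were. Responses below those of RKO numbered 0 in UO-31 (0 by limma also at an unadjusted p under 0.05), where 4.02% of all genes were lower.

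In OVCAR-4, 7 of 44 members responded more than in RKO and 6 less, where 7.8% and 27.6% of all genes did so. Those above RKO were ARSA (0.41 ± 0.10, adjusted p = 0.012), SGSH (0.30 ± 0.07, adjusted p = 0.013), CTSD, CD63, ATP6V0D1 and PSAP, with differences from 0.13 to 0.41, and CTSK, which was under 1 RPKM in RKO and is no comparison of responses. Without such genes 6 of 40 were above and 6 below, where 6.53% and 30% of all genes were. Those below were PPT1 (-0.40 ± 0.05, adjusted p = 6.3e-04), ATP6V1A, NPC1, CTSL, ASAH1 and CTSB, of which PPT1 and CTSL were still below after rescaling. In ABC-1, 13 of 41 members responded more and 6 less, where 12.8% and 34% of all genes did so, and over genes at 1 RPKM or more in both lines 13 of 39 and 6, where 11.2% and 37% did so. ARSA, among the 13 in both counts, averaged 1 RPKM in ABC-1 only through its G007-LK libraries, where it was higher. SMPD1 (0.67 ± 0.11, adjusted p = 1.7e-04), GAA (0.56 ± 0.08, adjusted p = 7.3e-05), ARSA (0.49 ± 0.12, adjusted p = 0.0058), TPP1 (0.41 ± 0.09, adjusted p = 0.0020) and CTSB (0.38 ± 0.07, adjusted p = 4.1e-04) led those above, and PPT1 (-0.68 ± 0.10, adjusted p = 7.5e-05), GLA (-0.59 ± 0.09, adjusted p = 1.9e-04), ARSB, LIPA, ATP6V1A and NEU1 (-0.26 ± 0.08, adjusted p = 0.013) were below. After rescaling, COLO 320DM had 18 members above RKO and 4 below, where 11.5% and 17.1% of all genes were. UO-31 then had 16 above and 0 below, where 8.96% and 13.7% of all genes were, and OVCAR-4 had 16 above and 2 below, where 13.8% and 14.1% were. ABC-1 had 22 above and 3 below, where 24.5% and 27.1% of all genes were, and its NEU1 did not differ past the threshold (-0.12, adjusted p = 0.13). Over genes at 1 RPKM or more in both lines, COLO 320DM after rescaling had 18 above and 3 below (11.4% and 17.6% of such genes). UO-31 had 15 and 0 (6.59% and 15%), OVCAR-4 had 13 and 2 (13.1% and 14.8%), and ABC-1 had 22 and 3 (23.4% and 29.1%), ARSA among the 22. Over the 4 lines 29 members differed from RKO in at least 1, or 27 without CTSF and CTSK, where 57.9% of the 13391 genes tested did so.

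These counts turned on single libraries, as did those of all genes. In COLO 320DM the members above RKO numbered 28 without its DMSO replicate 2, where 22.2% of all genes were above, 13 without its DMSO replicate 1 (6.79% of all genes), 4 without its G007-LK replicate 1 (1.77%) and 3 whichever RKO library was left out (1.41% to 1.55%). Those below numbered 4 without its DMSO replicate 1, where 21.7% of all genes were below, 1 without its G007-LK replicate 1 (4.88%) and 0 without its G007-LK replicate 2 (3.27%) or any single RKO library (2.15% to 2.58%). In UO-31 those above numbered 23 without its G007-LK replicate 2 (33.2% of all genes), 13 without its G007-LK replicate 1 (8.52%), and 1 or 2 without either of its DMSO replicates or any single RKO library (0.229% to 0.442%), and those below 7 without its G007-LK replicate 1, where 45.4% of all genes were below. In OVCAR-4 those above numbered 4 without its DMSO replicate 1 (6.25% of all genes) or without RKO G007-LK replicate 2 or either RKO DMSO replicate (5.21% to 5.92%). In ABC-1 those below numbered 3 without its G007-LK replicate 2 (29.0% of all genes), RKO G007-LK replicate 1 or RKO DMSO replicate 1 (28.0% each).

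**Figure D5:**
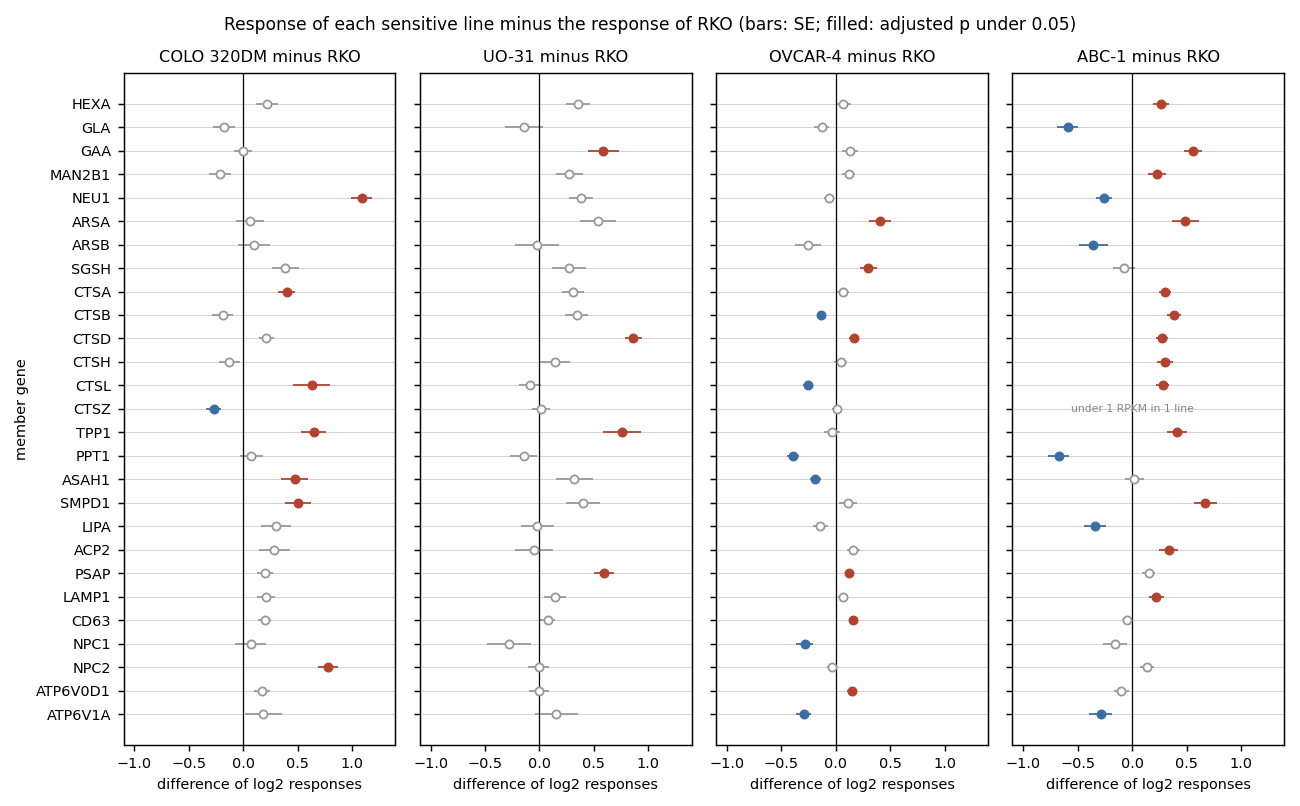
Response of each sensitive line minus the response of RKO, in log2 units with bars of 1 SE, for the 27 members past the threshold in at least 1 line in which they reached 1 RPKM in both that line and RKO (filled red above RKO, filled blue below, open where the adjusted p was 0.05 or more). NEU1 lies at 1.09 in COLO 320DM and at -0.26 in ABC-1, and PPT1 at -0.40 in OVCAR-4 and -0.68 in ABC-1. ARSA averaged 1 RPKM in ABC-1 only through its G007-LK libraries.

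Without the inhibitor, the level of the members differed widely between lines. The 42 members tested all differed among the 5 lines in the DMSO libraries by moderated F test, as did 99.5% of all genes tested, or 99.4% after rescaling. Mean DMSO levels were highest in OVCAR-4 for 27 of the 44, in ABC-1 for 11, in UO-31 for 5 and in RKO for 1, CTSL. The lowest level was in RKO for 22 and in COLO 320DM for 15. The summed RPKM of all genes was 895010 and 909187 in the OVCAR-4 DMSO libraries, against 381878 to 514173 in the DMSO libraries of the other lines, and its part in the order of the lines was not tested.

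CTSZ and CTSF differed most. CTSZ, a cysteine carboxypeptidase, averaged 526 ± 12.96 RPKM in UO-31, 255 ± 8.94 in OVCAR-4, 87.2 ± 0.653 in RKO, 71.8 ± 1.15 in COLO 320DM and 0.631 ± 0.184 in ABC-1 (SD, n = 2 each, DMSO). ABC-1 thus held almost none of it, and the other lines kept an order without overlap. CTSZ was called in no line as deposited, with 568 and 513 RPKM after G007-LK, against 536 and 517 RPKM in DMSO in UO-31, 253 and 267 RPKM after G007-LK, against 248 and 261 RPKM in DMSO in OVCAR-4, 61.95 and 58.8 RPKM after G007-LK, against 71.02 and 72.6 RPKM in DMSO in COLO 320DM, 0.458 and 0.285 RPKM after G007-LK, against 0.501 and 0.761 RPKM in DMSO in ABC-1, and 89.4 and 87.6 RPKM after G007-LK, against 87.7 and 86.8 RPKM in DMSO in RKO. CTSZ shares 31.7% of its exon bases with NELFCD on the other strand. CTSF averaged 26.9 ± 1.05 RPKM in OVCAR-4, 16.8 ± 0.522 in COLO 320DM and 11.5 ± 0.728 in UO-31, was at or below 0.0394 RPKM in each ABC-1 library, and was listed at 0 in 3 of the 4 RKO libraries and at 0.0176 RPKM in DMSO replicate 2. Among the members that differed least were ARSB, from 3.25 RPKM in RKO to 6.01 RPKM in OVCAR-4, and GUSB, which has pseudogene copies that may share its reads, from 22.7 RPKM in RKO to 45 RPKM in OVCAR-4.

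Genes that act with these members were read from 5 further lists. Of 17 genes of the MiT/TFE factors and their control at the lysosome, 15 were tested over the sensitive lines, 3 rose and 1 fell, where 10.2% and 33.8% of all genes did so, with a median log2 difference of 0.11 beside -0.09 over all genes. FLCN, part of the complex that controls TFE3 and TFEB through the Rag GTPases, rose (0.49 ± 0.10, adjusted p = 8.9e-04), as did RRAGC, a Rag GTPase (0.45 ± 0.10, adjusted p = 0.0012), and TFE3 (0.21 ± 0.06, adjusted p = 0.0062). MITF fell (-0.40 ± 0.11, adjusted p = 0.0100). FLCN had its largest difference in COLO 320DM (1.03 ± 0.15, adjusted p = 9.5e-05), with mean levels of 8.81 RPKM after G007-LK and 4.07 RPKM in DMSO, and so did RRAGC (0.99 ± 0.13, adjusted p = 4.1e-05), with 15.9 RPKM after G007-LK and 7.78 RPKM in DMSO. The same pair rose in RKO (0.28 and 0.19). TFEB fell in ABC-1 (-0.59 ± 0.13, adjusted p = 1.5e-05), with 2.30 RPKM after G007-LK and 3.71 RPKM in DMSO. Its differences in OVCAR-4 (0.11), COLO 320DM (0.34) and UO-31 (0.43) did not pass as deposited. With rescaling TFEB rose past the threshold in OVCAR-4, COLO 320DM and UO-31, and it still fell in ABC-1. After rescaling 10 genes of this list rose over the sensitive lines and 1 fell, where 22.2% and 27.8% of all genes did so.

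Of 28 further lysosomal hydrolases and membrane proteins, 26 were tested over the sensitive lines, 8 rose and 2 fell, where as above 10.2% and 33.8% of all genes did so, with a median of 0.08. DNASE2, the acid nuclease (0.35 ± 0.05, adjusted p = 4.4e-05), CTSO, a cathepsin (0.52 ± 0.10, adjusted p = 6.9e-04), and CD68, a heavily glycosylated membrane protein (0.47 ± 0.06, adjusted p = 2.3e-05), were among those that rose. Of 12 further V-ATPase subunits, 2 rose and 2 fell, with a median of 0.02, beside the same 10.2% and 33.8% of all genes. Of 9 genes of mannose 6-phosphate tagging and sorting, GNPTG, a subunit of the tagging enzyme, rose (0.23 ± 0.06, adjusted p = 0.0028) and GGA2, an adaptor of sorting, fell (-0.21 ± 0.07, adjusted p = 0.015), with a median of -0.01. M6PR, the cation-dependent mannose 6-phosphate receptor, fell in OVCAR-4 (-0.19, not past the threshold after rescaling) and ABC-1 (-0.43). Of 4 cystatins, inhibitors of cysteine cathepsins, 2 were tested over the sensitive lines, and CSTB rose. After rescaling 15 of the further hydrolases and membrane proteins rose and 1 fell, 4 V-ATPase subunits rose and 2 fell, and 3 of the tagging and sorting genes rose and 1 fell, where 22.2% of all genes rose and 27.8% fell.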

How the data were processed

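Poly(A) RNA was captured with oligo(dT), cut to about 200 bp and sequenced on an Illumina HiSeq. Per the study's methods, the authors aligned the reads to hg19 reference genes with SOAPaligner/SOAP2, allowing at most 2 mismatches (version and strand setting not given in the sources used here), and deposited RPKM, reads scaled by gene length and by mapped reads, for each library. RPKM scales each library by its mapped reads only, so a few abundant genes can shift all others. Separate deposited tables of the authors' own comparisons within each line, holding a log2 ratio and a NOISeq probability, were not used.

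From the 21610 table entries, 8 without a symbol (at most 0.00134% of a library's RPKM) were left out. 371 symbols on more than 1 entry were joined, which left 21201 symbols. Missing values were read as 0. Groups came from the labels, with 2 libraries each, named as biological replicates. Whether they came from separate cultures is not stated, so p-values measure the spread between these libraries, which may be technical. Log2(RPKM + 0.5) was fitted with limma 3.58.1 (trend and robust moderation, statmod 1.5.0) in R 4.3.3, keeping genes that averaged at least 1 RPKM, two-sided, with Benjamini-Hochberg adjustment over all genes tested and a threshold of 0.05. Every adjusted p in the text is from limma. Fold changes on this scale understate those of low genes. The fit was also run on simulated data, and the outcome is not given here. Fits covered each line (4 libraries), each sensitive line and RKO (8 libraries), the sensitive lines with the line as a block (16 libraries) and the DMSO libraries (10 libraries). Alternatives were a pseudocount of 0.1 or 1, no filter, an average of at least 5 RPKM, median ratio scaling, 1 fit over 20 libraries, a replicate block and leaving out each library. Tables were handled with Python 3.11.15, numpy 2.4.6 and pandas 2.3.3, and plots drawn with matplotlib 3.10.9.

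The members and gene lists were chosen with earlier results of these data known. Values by library are given for members past the threshold in the same direction in at least 3 sensitive lines, for up to 2 rises and 2 falls a line, those of greatest size with an average of at least 5 RPKM and groups apart, for members past it in both directions, and for the 2 with the widest range of DMSO levels. Other members with values were picked after their values were seen. Exon overlaps are from GENCODE v44lift37 on GRCh37, and promoter sequences from RefSeq on GRCh38.p14.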

Additional observations from a re-analysis of the deposited data

Results flagged for a closer look

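The response to G007-LK differed between a sensitive line and RKO, by limma's test of the interaction, for several of the lysosomal genes. In COLO 320DM, 7 of 42 members responded more than in RKO and 2 less, where 4.57% and 7.05% of all genes did so. In UO-31, 5 of 42 responded more, where 2.14% of all genes did so. In OVCAR-4, 7 of 44 responded more and 6 less, where 7.8% and 27.6% of all genes did so. In ABC-1, 13 of 41 responded more and 6 less, where 12.8% and 34% of all genes did so. CTSF, counted in COLO 320DM and UO-31, and CTSK, counted in OVCAR-4, were under 1 RPKM in RKO and are no comparison of responses. ARSA, counted in ABC-1, averaged 1 RPKM there only through its G007-LK libraries. Among the sensitive lines themselves the response differed for 21 of 40 members, led by NEU1, NPC2 and CTSD, where 27.8% of all genes differed, and for 26 after rescaling, where 56.5% did. The 4 comparisons with RKO share its libraries, and their counts over genes at 1 RPKM or more in both lines stand in the report. With 2 libraries a group, no library could be tested as standing apart from the rest of its group.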

How the results depend on the processing

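Absolute depth is unknown, so no counting error can be given, and 2 libraries a group leave each fit few degrees of freedom. No called member changed direction in any alternative, while many calls depended on a single library or on the scaling. Of 5574 comparisons of a value with its alternative, 4947 stayed on their side of the threshold (142 of these, past it in neither fit, changed sign), 345 were no longer past it, 279 came past it with the same sign and 3 with the opposite sign. Unless stated, counts are of members higher, then lower, and the cause of each change was not tested. Where no share of all genes is given here or above, a changed count cannot be told from a change over all genes.

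Without a filter on low values, COLO 320DM had 11 members that rose, UO-31 had 6 and RKO had 1. Responses above RKO then numbered 3 for UO-31, and those below RKO 1 for COLO 320DM, as with a pseudocount of 0.1 (1). With a mean of at least 5 RPKM, RKO had 11 that rose. With median ratio scaling, COLO 320DM had 2 that fell, UO-31 had 21 that rose, OVCAR-4 had 31 that rose and 2 that fell, and ABC-1 had 3 that fell. Members above and below RKO were then 18 and 4 for COLO 320DM, 16 above for UO-31, 16 and 2 for OVCAR-4, and 22 and 3 for ABC-1. The counts for COLO 320DM, UO-31 and OVCAR-4 include genes under 1 RPKM in RKO, as described above. In 1 fit over 20 libraries, UO-31 had 22 that rose, OVCAR-4 had 10 that rose and 1 that fell, ABC-1 had 3 that fell and RKO had 1 that rose.

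Without 1 library, COLO 320DM had 3 to 29 that rose and 0 to 2 that fell, UO-31 had 2 to 31 and 0 to 6, OVCAR-4 had 12 to 19 and 2 to 6, ABC-1 had 10 to 24 and 2 to 5, and RKO had 2 to 4 that rose. The shares of all genes that rose and fell were then 1.59% to 18.4% and 2.30% to 21.3%, 0.210% to 37.0% and 0.219% to 51.4%, 8.63% to 13.96% and 25.8% to 38.4%, 8.45% to 19.1% and 26.6% to 45.4%, and 0.513% to 0.666% and 0.552% to 0.742% in the same order of lines. Members above and below RKO were 3 to 28 and 0 to 4 for COLO 320DM, 1 to 23 and 0 to 7 for UO-31, 4 to 8 and 4 to 7 for OVCAR-4, and 11 to 18 and 3 to 8 for ABC-1. Over the sensitive lines 21 to 25 rose and 2 to 3 fell, and the response differed among lines for 12 to 30, where 18.1% to 57.4% of all genes differed. The 3 values that came past the threshold with the opposite sign were those of IDS in UO-31 (0.08 with all libraries, -0.21 to 0.37 without 1), NPC1 in UO-31 (-0.03, with a range of -0.28 to 0.21) and IDS in UO-31 minus RKO (-0.01, with a range of -0.30 to 0.27), with both ends of each range set by the 2 G007-LK libraries of UO-31.

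The replicate numbers carry no stated pairing. Deviations of equally numbered libraries correlated across genes, which are not independent replicates, with r = 0.06 for RKO, 0.01 for OVCAR-4, -0.02 for UO-31, -0.25 for ABC-1 and -0.25 for COLO 320DM. With a replicate block, COLO 320DM had 6 that rose and 0 that fell, UO-31 had 10 and 0, OVCAR-4 had 19 and 6, ABC-1 had 17 and 4, and RKO had 5 and 0. For COLO 320DM 3 were then above RKO and 0 below, and the response differed among lines for 11. With only genes at 1 RPKM or more in both lines, chosen after seeing the data, 1 member was below RKO in COLO 320DM. With a crossed replicate block, also chosen after seeing the data, COLO 320DM had 30 that rose and 3 that fell, and ABC-1 had 24 and 6.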
